A study of Mus musculus with 12 samples.

Results

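The myosin light chains and light chain kinases of the mouse tibialis anterior were compared between Smyd1 CKO mice and controls. They comprised the 9 genes Myl1, Myl2, Myl3, Myl4, Mylpf, Myl6, Myl6b, Mylk2 and Mylk4, chosen by gene symbol from the 23923 genes in the files. RNA was sequenced from the tibialis anterior, a mostly fast-twitch muscle of the lower hindlimb, of 6 control and 6 CKO mice aged 6 weeks, with 1 library per mouse. The study states that the experiments it reports after the muscle histology, among them the sequencing, used tissue of males only. Controls were Myf6 cre/+; Smyd1 flox/+ and CKOs were Myf6 cre/+; Smyd1 flox/-, on the mixed strain C57BL6/J;129S1/SvImJ. By the study's methods, every mouse of both genotypes also carried Rosa26 YFP/+. Controls therefore also carried cre, 1 floxed Smyd1 allele and 1 copy of the reporter, and the groups differed in whether the other Smyd1 allele was wild-type or null. The cre was expressed from the Myf6 locus, which is active in differentiated myofibers, so the design leaves the floxed allele in place in other cell types of the muscle. No pairing of the mice by replicate number is stated.

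Each myosin heavy chain carries an essential and a regulatory light chain on the lever arm behind its motor head, and fiber types use different isoforms of each. Mylpf (regulatory) and Myl1 (essential) are the fast-twitch isoforms, and Myl2 and Myl3 are the slow-twitch isoforms, which the cardiac ventricle also uses. Myl4 is the embryonic and atrial essential light chain. Myl6 and Myl6b are essential light chains of smooth muscle and non-muscle cells, and Myl6b is also found in slow skeletal fibers. Mylk2, the skeletal muscle myosin light chain kinase, phosphorylates the fast regulatory light chain when calcium and calmodulin activate it, and Mylk4 is a related kinase of striated muscle. Myl1 encodes a long and a short product from separate promoters, which a value per gene cannot separate.

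SMYD1 is a muscle-restricted lysine methyltransferase. Smyd1 was listed at 32.9 to 47.1 FPKM in controls (median 34.9) and 27.8 to 39.9 FPKM in CKOs (median 33.5). FPKM, the unit of the files, divides the fragments of a gene by the length of its transcript and by the size of the library. The ranges of the groups overlapped, with 3 CKOs below every control (log2 fold change -0.13, limma adjusted P = 0.545, or -0.32 and 0.0797 after the scaling described below). A deletion of part of a gene need not lower the FPKM of the whole gene, so these values do not check the genotype labels. By western blot, the study found no detectable SMYD1 protein in CKO tibialis anterior, without stating whether those mice were also sequenced. The absolute depth of the libraries is unknown because the files hold no counts. Relative depth, read from the steps between low FPKM values, ran from 0.984 in CKO 5 to 1.77 in CKO 1, with control 1 at 1. The muscle fiber genes Ckm, Acta1, Myh4, Pvalb and Neb were high in all 12 libraries, as the labelled tissue calls for. Ttn, the titin gene, was listed at 0 in 8 libraries and at 639 to 871 FPKM in the other 4, so an exact 0 in these files can be a failed estimate.

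By GENCODE mouse release 21 (GRCm38), Mylpf lies at chr7:127208890-127214298, Myl2 at chr5:122100951-122113472 and Mylk2 at chr2:152911352-152923068, all on the forward strand. Myl1 lies at chr1:66924295-66945404 on the reverse strand, Myl3 at chr9:110741861-110769798 and Myl4 at chr11:104550663-104595753 on the forward strand. Myl6 (chr10:128490860-128494145) and Myl6b (chr10:128494157-128498685) are neighbours on the reverse strand, 11 bases apart. Mylk4 lies at chr13:32700834-32783954 on the reverse strand. Ccdc63 overlaps Myl2 in part on the opposite strand, and Pth1r overlaps Myl3 in the same way. Genes on the opposite strand also overlap Myl4 and Mylk4. Whether the FPKM used strand is not given in the sources used here, so reads of such partners may enter these values.

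The sequences upstream of a RefSeq start are shown for the dominant regulatory light chain Mylpf and its slow counterpart Myl2. The level of Myl2 varied most between mice. For the rarer motifs found before RefSeq starts of other genes, 30-base windows are shown. They come from the RefSeq table for GRCm38.p6, which held 8 of the 9 genes, and are written 5′ to 3′ on the strand of the gene. The stretch before Mylpf is chr7:127211358-127211607 (forward strand), inside the GENCODE gene but in no exon of its basic set. The stretch before Myl2 is chr5:122092474-122092723 (forward strand), before the GENCODE gene start given above. It belongs to 1 of the RefSeq starts of Myl2. The stretch ends at 122092723 and the GENCODE gene begins at 122100951, so it does not adjoin that gene start. Capitals mark E-boxes, CANNTG, the motif that MyoD-family factors bind:
Mylpf: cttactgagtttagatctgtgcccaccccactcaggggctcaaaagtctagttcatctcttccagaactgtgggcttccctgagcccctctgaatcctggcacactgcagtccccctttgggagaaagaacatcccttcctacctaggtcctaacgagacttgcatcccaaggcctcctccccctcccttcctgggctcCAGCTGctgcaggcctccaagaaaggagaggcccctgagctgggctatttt
Myl2: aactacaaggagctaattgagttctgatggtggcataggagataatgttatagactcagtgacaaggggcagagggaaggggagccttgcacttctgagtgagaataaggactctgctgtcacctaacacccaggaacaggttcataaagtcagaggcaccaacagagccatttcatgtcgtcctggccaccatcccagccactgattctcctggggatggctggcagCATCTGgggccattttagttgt

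In the stretches shown, the Mylpf E-box is CAGCTG, 51 bases before the start, and the Myl2 E-box is CATCTG, 22 bases before it. The stretch before another RefSeq start of Myl2, not shown, holds CAGCTG and CATGTG. Which E-box stands before Myl2 therefore depends on the start chosen. On either strand, CANNTG occurred in 66.2% of the 32851 windows of 250 bases in the table, and CAGCTG, which is contained in it, in 13%. A match is therefore common and describes only the letters of a window. The CArG box, bound by SRF, and the MEF2 site were found in 1.47% and 2.92% of windows on either strand, and capitals mark them here:
Myl3 CArG box: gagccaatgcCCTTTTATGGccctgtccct
Myl6 CArG box: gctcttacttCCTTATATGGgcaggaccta
Mylk4 MEF2 site: ggcctggcatCTAAAATTAAtattcttccc

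These windows are chr9:110763583-110763612 (forward) for Myl3, chr10:128493040-128493069 (reverse) for Myl6 and chr13:32784048-32784077 (reverse) for Mylk4. The motifs begin 85, 50 and 103 bases before their starts. The Myl3 and Myl6 windows lie inside the GENCODE genes, and the stretch before that Myl3 start overlaps an exon of Myl3. The stretch before another RefSeq start of Myl6, chr10:128493887-128494136, holds no CArG box. No chromatin or binding data are part of this series, so none of these matches was tested as a site.

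The fast light chains dominated in both groups. In controls the median FPKM ran from Mylpf (4845) through Myl1 (2139), Mylk4 (93.8), Mylk2 (74.98), Myl3 (23.3), Myl6 (5.04), Myl2 (3.71) and Myl4 (1.71) to Myl6b (0.460). Each of these neighbours was separated by its ranges over the 6 controls except Mylk4 and Mylk2, Myl6 and Myl2, and Myl2 and Myl4, whose ranges overlapped. In CKOs the order differed at Myl2, whose median (19.0) stood above Myl3 (14.7) and Myl6 (5.21). Mylpf and Myl1 remained apart from the rest there, and every pair of neighbours from Mylk4 (76.6) down to Myl6b (0.623) had overlapping ranges. Mylpf and Myl1 together made up 4.89 to 6.83% of all FPKM in controls and 4.79 to 6.03% in CKOs.

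No member passed an adjusted P of 0.05 in either direction, where 2.02% of the 12695 genes tested were called higher and 0.268% lower by limma. All 9 passed the filter on low values, 0.1 FPKM or more in 6 or more mice. At an unadjusted P below 0.05, the cutoff that the study's methods give, 2 members (Myl2 and Myl4) were higher and 0 were lower. The background at that cutoff was 18.1% of genes higher and 1.76% lower, so 2 of 9 is close to the background share. The median log2 fold change of the members was -0.074, with 4 positive and 5 negative, against a median of 0.176 over all genes tested, of which 77.9% were positive. FPKM as deposited thus carried a shift between the groups. After scaling each sample by the median ratio of its FPKM to the geometric mean over samples, which brought the median of all genes to 0.0079, Myl2 and Myl4 stayed above the unadjusted cutoff, and Myl3 and Mylk2 were lower by it. Those scaled counts, 2 in each direction, stand beside 6.62% of all genes higher and 7.44% lower. At the adjusted cutoff the scaled count was 0 of 9 in both directions, beside 0.764% of genes higher and 0.709% lower. Fold changes are on the log2(FPKM + 0.1) scale, which understates the change of low genes.

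**Figure D1:**
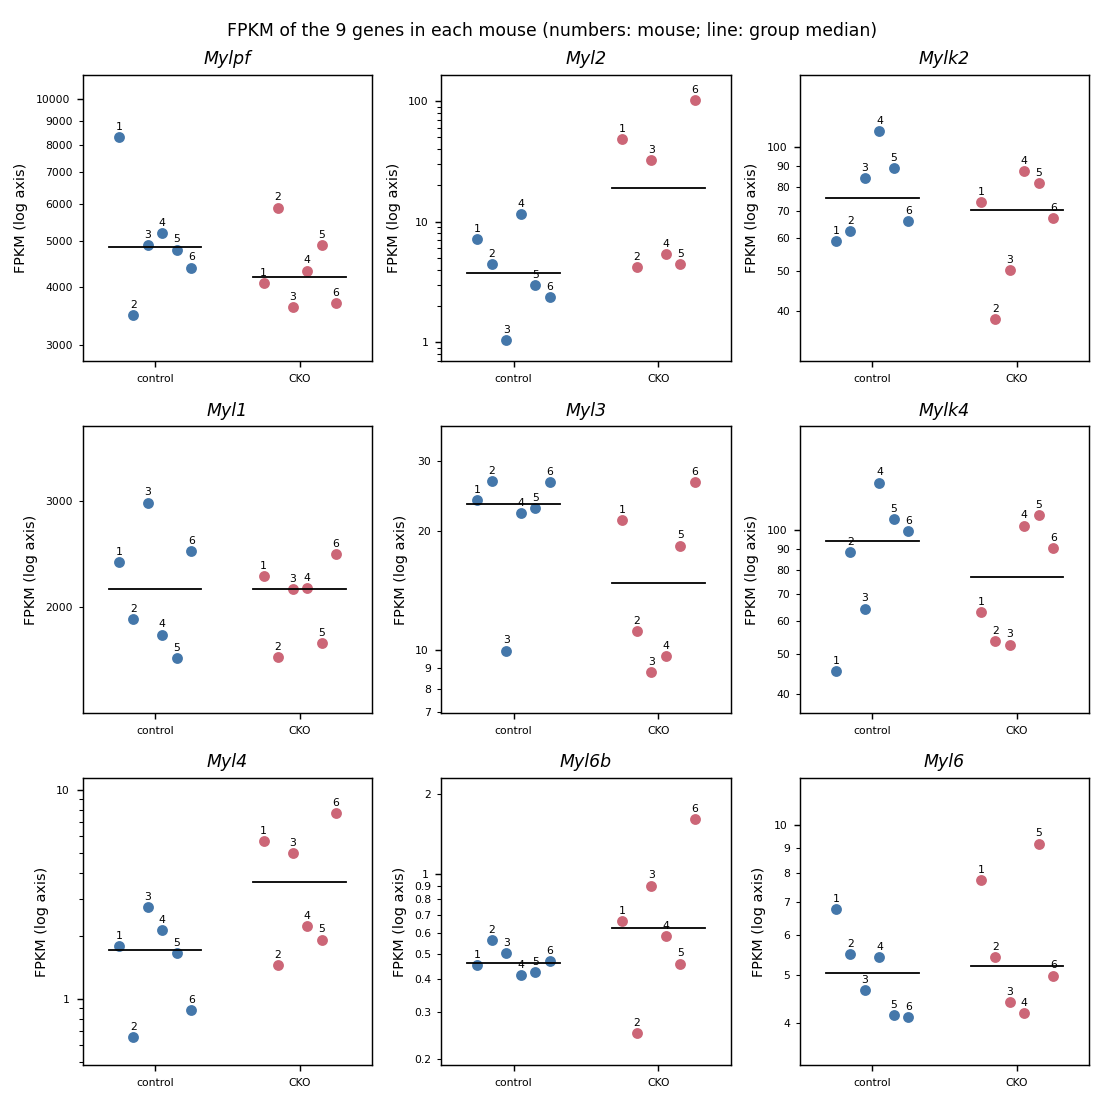
FPKM of each of the 9 genes in each mouse on log axes, with 1 panel per gene, control mice in blue and CKO mice in red, numbers naming the mouse and lines the group median. Myl2 and Myl4 were highest in CKO 1, CKO 3 and CKO 6, while Mylpf and Myl1 overlapped between the groups.

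Of the regulatory light chains, the fast isoform Mylpf overlapped between the groups. Mylpf ranged from 3476 to 8321 FPKM in controls (median 4845) and from 3609.6 to 5886 FPKM in CKOs (median 4197). Control 1 stood above the other mice and every CKO lay within the control range. The log2 fold change was -0.20 (95% interval -0.65 to 0.25, limma adjusted P = 0.611), or -0.39 after scaling (unadjusted P = 0.0614).

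The slow isoform Myl2 was high in some CKO mice and at control level in the others. It ranged from 1.04 to 11.6 FPKM in controls, with a median of 3.71. In CKOs it was 48.7, 4.19, 32.6, 5.39, 4.46 and 102 FPKM in mice 1 to 6, with a median of 19.0. CKO 1, CKO 3 and CKO 6 lay above every control, and CKO 2, CKO 4 and CKO 5 lay inside the control range. The log2 fold change was 2.06 (SE 0.78, 95% interval 0.41 to 3.71), with an unadjusted P of 0.0180 and an adjusted P of 0.161 in limma. Scaling gave 1.87 (unadjusted P = 0.0285). The SD of Myl2 was 38.5 FPKM in CKOs (n = 6), above their mean of 32.9 FPKM, and 3.87 FPKM in controls around a mean of 4.93 FPKM. Even in CKO 6, Myl2 made up 2.69% of the summed FPKM of Mylpf and Myl2. That share was 1.18% in CKO 1 and 0.895% in CKO 3, against 0.0213 to 0.222% in controls.

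Among the essential light chains, the fast isoform Myl1 had nearly the same median in both groups. Myl1 ranged from 1643 to 2977 FPKM in controls (median 2139) and from 1646 to 2446 FPKM in CKOs (median 2141). Every CKO lay inside the control range. Its log2 fold change was -0.074 (95% interval -0.44 to 0.29, limma adjusted P = 0.836), and leaving out control 3 or weighting the samples turned its sign.

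The slow essential light chain Myl3 was not above the controls in any CKO, unlike its slow partner Myl2. Myl3 ranged from 9.96 to 26.6 FPKM in controls (median 23.3) and from 8.80 to 26.5 FPKM in CKOs (median 14.7). Control 3 stood apart below the other 5 controls, at 22.1 to 26.6 FPKM, and CKO 3 and CKO 4 lay below every control. The difference on the log2 scale was -0.52 (95% interval -1.13 to 0.098, limma adjusted P = 0.330). Scaling gave -0.70 with an unadjusted P of 0.0310. The unadjusted cutoff was also passed without control 3 (-0.73) and without CKO 6 (-0.69). In CKO 1, CKO 3 and CKO 6, Myl3 was 0.909, 0.377 and 1.13 times the control median, where Myl2 was 13.1, 8.79 and 27.5 times its own.

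The embryonic essential light chain Myl4 was highest in the same mice as Myl2. It ranged from 0.653 to 2.74 FPKM in controls, with a median of 1.71. In CKOs it was 5.69, 1.45, 4.997, 2.23, 1.92 and 7.72 FPKM in mice 1 to 6, with a median of 3.62. CKO 1, CKO 3 and CKO 6 lay above every control, and the other 3 CKOs lay inside the control range. The log2 fold change was 1.13 (SE 0.41, 95% interval 0.26 to 1.997), with an unadjusted P of 0.0142 and an adjusted P of 0.149 in limma. Scaling gave 0.95 (unadjusted P = 0.0256). As a share of the summed FPKM of Myl1, Myl3, Myl4 and Myl6b, it was 0.0338 to 0.117% in controls and 0.0876 to 0.311% in CKOs.

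Myl6b, the essential light chain shared by slow fibers and non-muscle cells, was the lowest of the members. It ranged from 0.416 to 0.562 FPKM in controls (median 0.460) and from 0.250 to 1.60 FPKM in CKOs (median 0.623). The CKO values were wider on both sides, with 4 mice above every control and CKO 2 below every control. The fitted log2 fold change was 0.39 (SE 0.29, limma adjusted P = 0.453), or 0.23 after scaling. At this level few fragments stand behind each value. Without CKO 2 the difference was 0.61 on the log2 scale and passed the unadjusted cutoff.

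Myl6, the essential light chain of smooth muscle and non-muscle cells, ranged from 4.11 to 6.78 FPKM in controls (median 5.04) and from 4.19 to 9.19 FPKM in CKOs (median 5.21). CKO 5 and CKO 1 lay above every control and the other 4 CKOs lay inside the control range. Its log2 fold change was 0.19 (95% interval -0.22 to 0.60, limma adjusted P = 0.597), which is close to the shift of all genes, and it was 0.0039 after scaling. Reads that mapped to several places were discarded by the authors, so the values of near-identical copies are uncertain.

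Both kinases overlapped between the groups. Mylk2, the calcium- and calmodulin-dependent kinase of the fast regulatory light chain, ranged from 59.2 to 109 FPKM in controls (median 74.98) and from 38.1 to 87.5 FPKM in CKOs (median 70.2). CKO 2 and CKO 3 lay below every control. Its fold change on the log2 scale was -0.26 (95% interval -0.69 to 0.17, limma adjusted P = 0.477), or -0.45 after scaling (unadjusted P = 0.0483).

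Mylk4, the related kinase of striated muscle, ranged from 45.3 to 130 FPKM in controls (median 93.8) and from 52.6 to 108 FPKM in CKOs (median 76.6). Every CKO lay inside the control range. The log2 fold change was -0.16 (95% interval -0.70 to 0.37, limma adjusted P = 0.738), or -0.35 after scaling. The kinases varied together over the 12 mice (Pearson r = 0.81 on scaled log2 values, as a description).

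**Figure D2:**
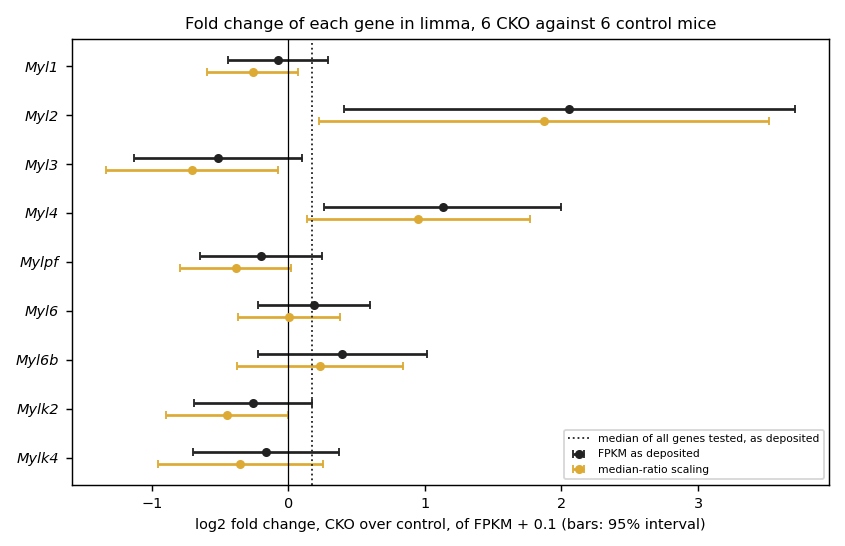
Log2 fold change of CKO over control for each gene with its 95% interval from limma, on FPKM as deposited (black) and after median-ratio scaling (yellow), with a dotted line at the median of all genes tested (0.176). The intervals of Myl2 and Myl4 lay above 0 on both scales, and those of Myl3 and Mylk2 lay below 0 after scaling only.

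Ratios within a mouse compare isoforms without the scaling of the sample. The 8 ratios were tested by an exact two-sided permutation test over all assignments of the mice to the groups, whose smallest possible P is 0.002165. No ratio passed an adjusted P of 0.05 over the 8. Since the isoforms of a ratio also enter the values above, the ratios are not separate evidence on each gene.

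Myl2/Myl3, the slow regulatory over the slow essential light chain, differed most. It was 0.0896 to 0.524 in controls (median 0.149) and 0.243 to 3.85 in CKOs (median 1.43). CKO 1, CKO 3, CKO 6 and CKO 4 lay above every control, and CKO 2 and CKO 5 lay within the control range. The difference was 2.57 on the log2 scale, 5.96-fold (exact permutation test, P = 0.0130, adjusted P = 0.104). In CKO 1, CKO 3 and CKO 6 the ratio was 2.30, 3.71 and 3.85, so that Myl2 exceeded Myl3 in those mice, as in no control.

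Myl4/Myl1, the embryonic over the fast essential light chain, was 2.30-fold higher in CKOs (log2 difference 1.203, exact permutation test, P = 0.0260, adjusted P = 0.104), with 3 CKOs above every control. Myl2/Mylpf, the slow over the fast regulatory light chain, was 4.78-fold higher (log2 difference 2.26, exact permutation test, P = 0.0628, adjusted P = 0.167), again with 3 CKOs above every control. For both ratios these were CKO 1, CKO 3 and CKO 6. The corresponding slow over fast essential ratio, Myl3/Myl1, had a log2 difference of -0.44 (exact permutation test, P = 0.286).

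Myl6b/Myl1 differed by 0.47 on the log2 scale (exact permutation test, P = 0.115, adjusted P = 0.229), with CKO 3 and CKO 6 above every control. Mylpf/Myl1, the fast regulatory over the fast essential light chain, was 1.65 to 3.51 in controls and 1.51 to 3.58 in CKOs (log2 difference -0.13, exact permutation test, P = 0.682). Mylk4/Mylk2 differed by 0.097 and Mylk2/Mylpf by -0.062 on the log2 scale (exact permutation tests, P = 0.675 and P = 0.753). Leaving out single mice turned the sign of both ratios of the kinases.

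**Figure D3:**
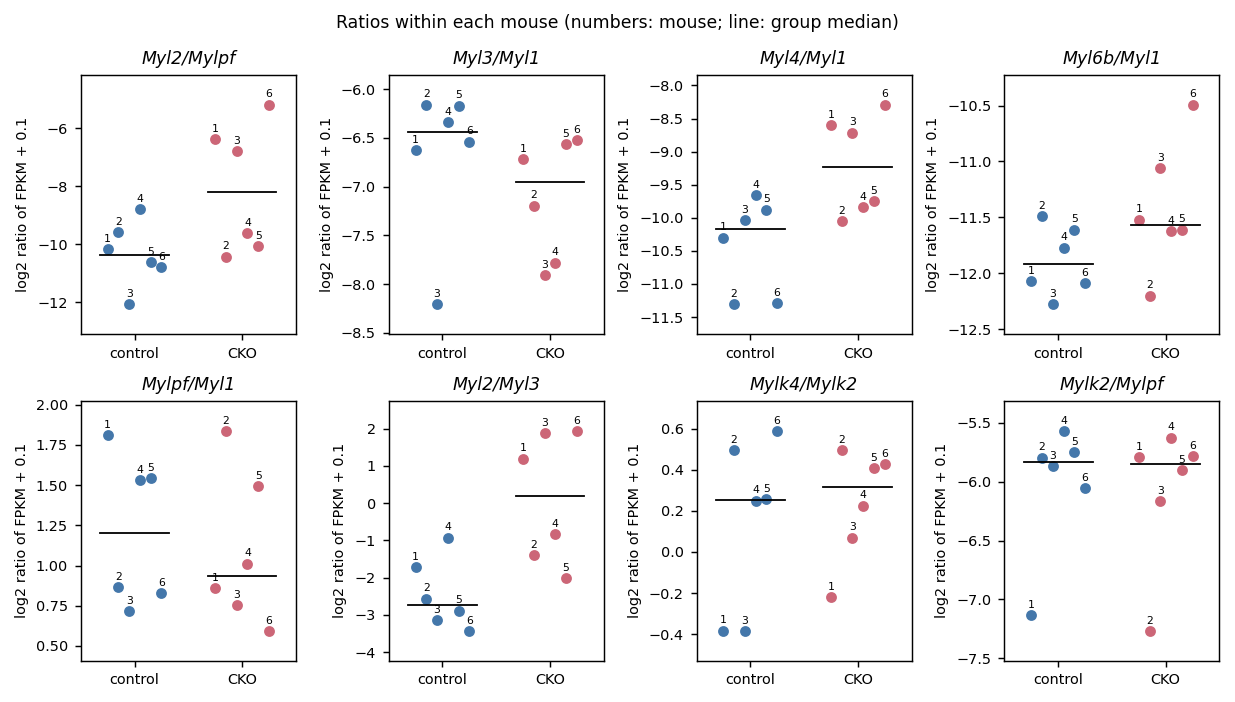
Log2 ratio of FPKM + 0.1 between members in each mouse, with 1 panel per ratio, control mice in blue and CKO mice in red, numbers naming the mouse and lines the group median. For Myl2/Myl3, 4 CKO mice lay above every control, and for Myl2/Mylpf and Myl4/Myl1 these were 3.

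The light chains that were high in CKO 1, CKO 3 and CKO 6 were set beside other genes of slow-twitch fibers. The list was Myh7, Myh7b, Tnni1, Tnnc1, Tnnt1, Tpm3, Atp2a2, Casq2, Pln and Myoz2. At the unadjusted cutoff 8 of the 10 were higher and 0 lower, 1 of them (Myh7b) past the adjusted one as well, and the median log2 fold change was 1.06. After scaling, 7 were higher, 0 of them at the adjusted cutoff, with a median of 0.89. Over all genes tested, 18.1% were higher at the unadjusted cutoff as deposited and 6.62% after scaling. The summed FPKM of the list was 36.2 to 67.0 in controls. It was 144 in CKO 1, 118 in CKO 3 and 273 in CKO 6, and 49.2 to 63.0 in the other 3 CKOs, inside the control range. None of the 10 genes was at 0 in every library. In bulk muscle, a larger number of slow fibers and more slow-fiber RNA per fiber cannot be told apart, and the part of slow-fiber RNA in the values of Myl2 and Myl6b was not tested.

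Myh7, the slow myosin heavy chain, was 37.7, 17.9 and 85.8 times its control median in CKO 1, CKO 3 and CKO 6, and Tnnc1, the slow and cardiac troponin C, was 11.6, 5.13 and 26.0 times its own. Myl2 at 13.1, 8.79 and 27.5 times and Myl3 at 0.909, 0.377 and 1.13 times had the same order over these mice, but Myl3 stayed near or below its control median. For Myh7 the log2 fold change was 2.58 (limma adjusted P = 0.155), and for Tnnc1 it was 1.99 (limma adjusted P = 0.148). Atp2a2, the slow-twitch calcium pump SERCA2, had a log2 fold change of 0.87 (adjusted P = 0.109) and Myoz2, a Z-disc protein of slow fibers, one of 0.90 (adjusted P = 0.0953). Myh7b, a slow-type heavy chain, was 0.0905 to 0.239 FPKM in controls and 0.265 to 0.708 FPKM in CKOs without overlap (log2 fold change 0.94, limma adjusted P = 0.0470, or 0.113 after scaling).

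The 3 highest of the 12 mice were CKO 1, CKO 3 and CKO 6 for 3 of the 9 members, Myl2, Myl4 and Myl6b. The same held for 6 of the 10 slow-fiber genes, 5 of 10 embryonic and neonatal genes tested, and 561 of all genes tested (4.42%). It also held for 3 of 18 other light chains and regulators, 2 of 13 fast-fiber genes and 1 of 2 cardiac genes tested. In the other marker lists it held for 0 genes. These mice were singled out after the values were seen, so the counts are a description. Their relative depths of 1.77, 1.3 and 1.18 lay among those of the other mice except for CKO 1, which was the highest. Of 5 cardiac chamber genes, Nppb and Myl7 were listed at 0 in all mice, Nppa at 0 in all but CKO 6 (0.0946 FPKM), and the summed level was 0.288 to 0.779 FPKM in controls. In CKO 1, CKO 3 and CKO 6 that sum was 2.44, 1.98 and 3.22 FPKM, with Myh6 at 2.37, 1.63 and 2.93 FPKM, and in the other CKOs it was 0.235 to 0.685 FPKM. Myh6 is a close paralog of Myh7, so its values are uncertain. The part of such RNA in the light chain values was not tested.

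**Figure D4:**
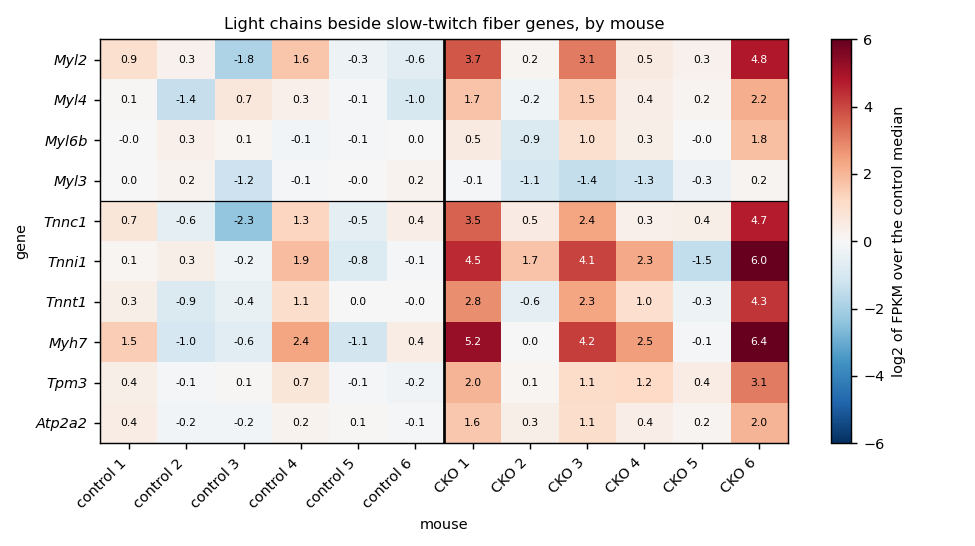
Log2 of the FPKM over the control median for 4 light chains (top) and 6 slow-twitch fiber genes (bottom) in each of the 12 mice, colored from blue (lower) to red (higher). Of the 10 slow-twitch genes listed, Myh7b, Casq2, Pln and Myoz2 are not shown. Myl2 was above its control median with the 6 genes shown in CKO 1, CKO 3 and CKO 6, while Myl3 was at 0.909, 0.377 and 1.13 times its own.

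The other myosin light chains and the kinases, phosphatase subunits and other regulators that set light chain phosphorylation formed a list of 20 genes, of which 18 were tested. At the unadjusted cutoff 4 were higher (Myl12a, Ppp1r12a, Ppp1r12b and Rock1) and 1 lower, with a median log2 fold change of 0.10. The 4 of 18 higher are close to the 18.1% of all genes tested that were higher by this cutoff. After scaling, 2 were higher and 3 lower, with a median of -0.079. Myl7, the atrial regulatory light chain, was listed at 0 in all mice, and Mylk3, the cardiac kinase, reached at most 0.115 FPKM and was not tested.

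Myl12a, a regulatory light chain of non-muscle myosin, was the 1 gene of the list past the adjusted cutoff with FPKM as deposited. After scaling 0 were higher and 1 lower by that cutoff. Myl12a was 10.9 to 20.3 FPKM in controls (median 13.9) and 17.5 to 29.3 FPKM in CKOs (median 23.8). Every CKO lay above all controls but control 1, and 4 of 6 lay above that too. It rose by 0.71 on the log2 scale (SE 0.16, limma adjusted P = 0.0385), and by 0.52 after scaling (adjusted P = 0.0728). Its close paralog Myl12b ranged from 4.22 to 11.8 FPKM in controls and from 3.10 to 20.7 FPKM in CKOs (limma adjusted P = 0.763).

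Ppp1r12b is the myosin-targeting subunit of the light chain phosphatase in striated muscle. It was 19.6 to 26.4 FPKM in controls and 26.4 to 40.4 FPKM in CKOs. As deposited, all 6 CKOs lay above every control, by a narrow margin. Its log2 fold change was 0.41 (limma adjusted P = 0.0676), or 0.23 after scaling (limma adjusted P = 0.3225).

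The fast light chains were set beside other genes of fast-twitch fibers. By the unadjusted cutoff, 4 of 13 fast-fiber genes were higher and 1 lower, with a median log2 fold change of -0.088. After scaling 4 were higher and 6 lower, with a median of -0.28. The shares over all genes tested were 18.1% higher and 1.76% lower, or 6.62% and 7.44% after scaling. Myh1, the IIX heavy chain, was 873 to 1139 FPKM in controls and 1378 to 2630.5 FPKM in CKOs, without overlap as deposited. It rose by 1.05 on the log2 scale (SE 0.18, limma adjusted P = 0.0073), or by 0.86 after scaling (limma adjusted P = 0.0285). Myh1 was the only fast-fiber gene past the adjusted cutoff on either scale. Myh4, the IIB heavy chain, had a log2 fold change of 0.77 (limma adjusted P = 0.0599), Myh2, the IIA heavy chain, one of 1.18 (limma adjusted P = 0.107), and Mybpc2, the fast myosin-binding protein C, one of 0.52 (adjusted P = 0.0623). After scaling, the log2 fold changes of Myh4, Myh2 and Mybpc2 were 0.58, 0.995 and 0.33 (limma adjusted P = 0.18, 0.226 and 0.193). The gene lower as deposited was Tpm1 (-0.40). The 6 lower after scaling were Tnni2, Tnnc2, Tnnt3, Tpm1, Pvalb and Actn3, with log2 fold changes of -0.59 to -0.49. Mylpf and Myl1 had log2 fold changes of -0.20 and -0.074, or -0.39 and -0.26 after scaling. The difference between heavy and light chains was not tested.

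Myl4 was set beside 11 embryonic and neonatal muscle genes. By the unadjusted cutoff, 7 of the 10 tested were higher and 0 lower, with a median log2 fold change of 0.87, and 4 (Myh3, Chrna1, Sln and Mybph) passed the adjusted one. Scaling left 6 higher and 1 lower (Actc1, -0.72), with 2 (Sln and Mybph) past the adjusted cutoff and a median of 0.70. Of all genes tested, 18.1% were higher at the unadjusted cutoff as deposited and 6.62% after scaling. Myh3, the embryonic heavy chain, was 0.551 to 1.81 FPKM in controls and 1.302 to 25.7 FPKM in CKOs, highest in CKO 6, CKO 1 and CKO 3 (log2 fold change 2.67, limma adjusted P = 0.0358). Mybph, myosin-binding protein H, was 5.03 to 17.0 FPKM in controls and 21.3 to 43.7 FPKM in CKOs without overlap (log2 fold change 1.83, limma adjusted P = 0.0025). Sln, the inhibitor of the calcium pump, and Chrna1, the acetylcholine receptor alpha subunit, had log2 fold changes of 3.95 and 0.81 (limma adjusted P = 0.0173 and 0.0331). After scaling, the limma adjusted P was 0.0524 for Myh3 and 0.102 for Chrna1, past the cutoff for neither.

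Markers of other cells in the muscle were read for the same mice. All 4 satellite cell markers (Pax7, Myf5, Calcr and Vcam1) were higher at the unadjusted cutoff and 0 at the adjusted one. After scaling 3 were higher, without Pax7. Their summed FPKM was 1.21 to 2.60 in controls and 2.71 to 4.48 in CKOs. The part of these cells in the level of Myl4 was not tested. The sum was 3.79, 3.05 and 4.48 FPKM in CKO 1, CKO 3 and CKO 6 and 2.71 to 3.34 FPKM in the other CKOs. Smooth muscle markers, which bear on Myl6, had 0 of 7 genes called in either direction, with sums of 18.1 to 27.3 FPKM in controls and 19.1 to 25.3 FPKM in CKOs. Endothelial markers had 0 of 6 called, and 0 of 3 leukocyte markers tested were called. Of 6 fibroblast markers, 2 (Pdgfra and Lum) were higher at the unadjusted cutoff, and 1 (Pdgfra) after scaling. Their sum was 220 to 827 FPKM in controls, highest in control 1, and 292 to 490 FPKM in CKOs. These marker counts stand beside 18.1% of all genes higher at the unadjusted cutoff as deposited and 6.62% after scaling.

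The genes whose scaled levels over the 12 mice were most like each member were named by their Pearson r, as a description. For Myl2 these were Tnnc1 (0.966), Atp2a2 (0.949) and Myh7 (0.930), all of the slow-fiber list. For Myl4 they were Appbp2 (0.952), Fam49a (0.928) and Fibin (0.918), and for Myl6b Tsc22d1 (0.897), Pdpk1 (0.892) and Crtc3 (0.840). For Myl3 they were Pitpnb (0.840), Lamtor1 (0.809) and Lrrc2 (0.805). For Mylpf they were Ndufv3 (0.913), Psmc2 (0.893) and Pdhb (0.889), and for Myl1 Brd7 (0.864), Nolc1 (0.812) and Zdhhc6 (0.802). For Myl6 they were Lzic (0.900), Elmod2 (0.860) and Tbcb (0.856). For Mylk2 they were Psme4 (0.959), Setd7 (0.954) and Pygm (0.942), and for Mylk4 Spen (0.921), Ubr2 (0.920) and Qser1 (0.918). Among the members themselves, the highest values were Mylk2 with Mylk4 (0.81) and Myl2 with Myl4 (0.746), and the lowest was Mylpf with Myl6b (-0.754). Myl2 and Myl3 had an r of 0.086. Each of these values shares 12 libraries, and the 3 CKO mice with high Myl2 weigh heavily in those of Myl2, Myl4 and Myl6b.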

How the data were processed

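Total RNA of the tibialis anterior was rRNA-depleted (ScriptSeq Complete Gold kit) and sequenced, with 1 library per mouse. The authors aligned reads with bowtie2 and tophat, discarded reads with several mapping positions, and derived the deposited FPKM with cufflinks. The submitters' processing notes name TopHat2 2.0.10, Cufflinks 2.1.1 and mm9. Each file held 23950 rows, of which 27 with a date in place of a symbol were left out. The authors tested counts with DESeq, and those counts were not used here.

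Groups followed the genotype labels. CKOs and controls were compared with limma 3.58.1 in R 4.3.3 (intensity trend, no block) on log2(FPKM + 0.1), keeping genes at 0.1 FPKM or more in 6 or more of the 12 samples, with Benjamini-Hochberg adjustment over 12695 genes. Scaled values are median-ratio scaled. The study speaks of control littermates, but nothing states littermate pairs for these samples. The mice were therefore treated as independent, and limma P-values set the group difference against the spread between mice. The alternatives were a pseudocount of 1, other filters, median-ratio and quantile scaling, a replicate block, no trend, sample weights and leaving out each mouse. The code was tested on simulated data. Depth in reads is unknown, so no counting intervals are given.

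The members and lists were chosen with earlier results of these data known. The text names all members and Smyd1, the genes of each other list past an adjusted P of 0.05 or among its 3 smallest P, and the 3 genes with the highest r to each member (mean of at least 1 FPKM). A gene that meets this rule is not reported here. Myh7, Tnnc1, Myh2, Myl12b and genes named with a count were added after their values were seen, and most marker genes are given only as counts. Positions came from GENCODE by symbol, since the files carry none.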

Additional observations from a re-analysis of the deposited data

Results flagged for a closer look

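Within each group of 6 mice, each member and ratio was examined for a mouse whose gap to its nearest neighbour exceeded Dixon's 95 percent critical share of the group's range. Of 34 groups examined, 5 held such a mouse, where chance alone gives about 5 percent of groups. Each ratio shares values with its members, so the groups are not independent and this count is only a description. Control 3 had the lowest Myl3 of the controls (9.96 FPKM, gap 0.731 of the range) and the lowest Myl3/Myl1 (log2 ratio -8.21, gap 0.771). Control 1 had the highest Mylpf (8321 FPKM, gap 0.645) and the lowest Mylk2/Mylpf of the controls (log2 ratio -7.13, gap 0.690). CKO 2 had the lowest Mylk2/Mylpf of the CKOs (log2 ratio -7.27, gap 0.670). Without control 3 the difference in Myl3/Myl1 became -0.75 on the log2 scale.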

How the results depend on the processing

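Myl2 and Myl4 were higher at an unadjusted P below 0.05 in limma under each alternative tried, with log2 fold changes of 1.53 to 2.44 for Myl2 over the mice left out in turn and of 0.893 to 1.36 for Myl4. Sample weights put both past the adjusted cutoff (2 members). Members lower at the unadjusted cutoff were 2 after median-ratio scaling, 1 after quantile normalization, and 0 to 1 over the mice left out (1, Myl3, without control 3 or CKO 6). Myl1 turned its sign with sample weights (0.052) and without control 3 (0.020, range -0.15 to 0.020 over the mice left out), and Mylpf with quantile normalization (0.011). Over the mice left out, the log2 difference ran from 1.68 to 2.73 for Myl2/Mylpf (exact permutation P = 0.0303, 0.0498 and 0.0390 without CKO 2, CKO 4 and CKO 5), -0.75 to -0.28 for Myl3/Myl1 (exact permutation P = 0.0346 without control 3), 1.02 to 1.37 for Myl4/Myl1 (above the 0.05 cutoff without control 2, control 6 or CKO 6, exact P up to 0.0584) and 0.28 to 0.62 for Myl6b/Myl1 (exact permutation P = 0.0260 without CKO 2). It ran from -0.0074 to 0.19 for Mylk4/Mylk2 (-0.0073 without control 1, -0.0074 without control 3) and from -0.28 to 0.17 for Mylk2/Mylpf (0.030 without control 4, 0.17 without CKO 2). Myl2/Myl3 stayed at an exact P below 0.05 throughout (2.21 to 3.003 over the mice left out). The cause of these changes was not tested.

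Over all genes, the adjusted counts of higher and lower genes (257 and 34) were 133 and 12 with no filter, 97 and 90 after median-ratio scaling, 101 and 68 after quantile normalization, and 1400 and 115 with sample weights. They ran from 84 (without CKO 1) to 1067 (without control 1) and from 18 (without CKO 1) to 69 (without control 1) over the mice left out. The unadjusted counts (2300 and 224) were 841 and 944 after median-ratio scaling and 810 and 837 after quantile normalization, and 3704 were higher with sample weights. Myl6b could not be fitted with a filter at 1 FPKM. Low genes such as Myl6b and Myl4 are limited most by depth.

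No clear pairing of the mice by replicate number was seen. The correlation of the deviations of mice with the same number was -0.086 to 0.16 (mean 0.040, against -0.0088 for other pairs). By it, 2 of 6 matched best with their own number. Such correlations cannot exclude pairs. With the replicate block, 1 member (Myl3) was lower at the unadjusted cutoff (limma P = 0.0140), and Myl4/Myl1 had the same difference (1.203) with a sign-flip permutation P of 0.0938. For Myl2/Myl3 the block gave 0.0313, the smallest P that 6 pairs allow. It changed no other call on a member or ratio.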
